A study of Mus musculus with 4 samples.

Results

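A group of 9 entries in the mouse miRNA catalogue is suspected to be pieces of other RNA classes: miR-2137, miR-5099, miR-5100, miR-5115, miR-5121, miR-6236, miR-6240, miR-690 and miR-1843a. They were taken up by name, and every row of the deposited table that lies in one of their hairpins was kept. This gave 9 of the 2110 rows, for 8 of the 9 entries, with both arms of miR-1843a; miR-5115 was not analysed here. The list gives no threshold. It is taken to have been selected on, among other grounds, the counts of these same libraries in the contrast below, so the values of that contrast describe the entries and support nothing. The libraries hold small RNA from extracellular vesicles, the membrane particles that cells shed, of C2C12, an established mouse myoblast line of WT genotype grown with 10% fetal bovine serum. In the damaged group (n = 2) the treatment was hydrogen peroxide, and in the WT group (n = 2) the treatment label reads WT. The labels give no dose and no time. They tie no replicate to a culture of its own, and the spread that p-values rest on here may therefore be technical.

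A miRNA is cut from a hairpin by Drosha and Dicer and is then carried by an Argonaute protein, which reads its targets with the seed, bases 2 to 8. Cells also hold far more abundant structured RNA. Ribosomal RNA builds the ribosome, transfer RNA carries amino acids, C/D box snoRNA guides methylation of ribosomal RNA, and scaRNA guides the modification of spliceosomal RNA in Cajal bodies. Pieces of these RNAs have the length of miRNAs, and some entered miRNA catalogues from small RNA sequencing, so a count for such an entry need not stand for a miRNA.

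The mature sequences below (RefSeq, GRCm38.p6, the assembly known as mm10) are shown because the questions about these entries rest on their letters, and the capitals mark the seed.
miR-6240: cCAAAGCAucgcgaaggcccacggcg
miR-6236: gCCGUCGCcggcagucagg
miR-2137: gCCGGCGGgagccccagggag
miR-5100: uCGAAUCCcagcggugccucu
miR-5121: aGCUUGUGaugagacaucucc
miR-1843a-5p: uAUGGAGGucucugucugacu
miR-1843a-3p: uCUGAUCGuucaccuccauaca
miR-690: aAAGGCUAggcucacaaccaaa
Of 1679 named mature sequences, miR-330-3p alone shared the seed of miR-6240, and none shared the seed of the other 7. GC content was high in 3 of the sequences: 85.7% of bases in miR-2137, 78.9% in miR-6236 and 69.2% in miR-6240, against a median of 52.17% over all mature names. Only 0.4765% of mature names reached the GC content of miR-2137, 1.191% that of miR-6236 and 5.301% that of miR-6240. miR-6240 is 26 bases long, a length that 14 of the 1679 names reach or pass, and miR-6236 has 19 bases, while the median is 22.

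Of the 9 rows, 3 lie in an exon of a structured RNA gene on the same strand (GENCODE vM21), as do 28 of all 2110 rows (1.33%). miR-5121 (chromosome 7, 45126925 to 45126945, minus strand) is bases 3 to 23 of Snord33, a C/D box snoRNA of 84 bases inside Rpl13a, a ribosomal protein gene. The hairpin of miR-5121 is shown with the bases it shares with Snord33 in capitals, since the snoRNA covers the whole mature sequence and not the 5′ side of the hairpin.
Mir5121: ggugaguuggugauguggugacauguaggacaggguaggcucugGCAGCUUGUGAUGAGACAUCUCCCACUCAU
Bases 7 to 12 of miR-5121 read UGAUGA, the core letters of the C box that C/D box snoRNAs carry near the 5′ end, and in Snord33 they are bases 9 to 14. Of 1679 mature names, 0.715% hold these letters on the same strand and 1.07% on either strand. The arms of miR-1843a lie on the minus strand of chromosome 12, the 5p arm at 80391654 to 80391674 and the 3p arm at 80391615 to 80391636. They are bases 78 to 98 and 116 to 137 of Scarna3b, a scaRNA annotated with 139 bases in an intron of Dcaf5, so that 2 bases follow the 3p arm.

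miR-5100, at 60728698 to 60728718 on the plus strand of chromosome 11, lies in an intron of Mief2, and its hairpin holds GUUCGA, any 2 bases and CC, the letters of the B box found in transfer RNA genes, in capitals below. They are bases 34 to 43, and the mature sequence starts at base 36.
Mir5100: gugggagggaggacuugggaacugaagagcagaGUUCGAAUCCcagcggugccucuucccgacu
Of 1005 hairpins, 3 (0.299%) hold this motif, counted on either strand, and a match describes letters only. miR-2137 lies in an intron of Zfp185 on the plus strand of chromosome X at 72992113 to 72992133. miR-6240 (chromosome 5, 114851973 to 114851998, plus strand), miR-6236 (chromosome 9, 110281353 to 110281371, plus strand) and miR-5099 (chromosome 12, 36816250 to 36816269, plus strand) lie in no GENCODE gene other than their own hairpins, and the RefSeq lncRNA Gm39429 spans that of miR-6236. The sequences of miR-6240, miR-6236, miR-2137 and miR-5100 occurred, among GENCODE transcripts, in their own hairpins only. The sequence of miR-5099 was not compared. Large ribosomal RNA and nuclear transfer RNA sequences were not compared here. miR-690 (chromosome 16, 28599940 to 28599961, minus strand, in an intron of Fgf12) had exact copies in 18 other annotated genes. No member row shared bases with another row, so opposite-strand entries take no part in these counts.

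Of the 7 hairpins folded, those of miR-6240 and miR-690 had the weakest predicted folds; Mir6236 was not folded here. The folding energy per base (RNAfold) was -0.21 kcal/mol for Mir6240, and 1.493% of the 1005 hairpins folded as weakly or more weakly. It was -0.27 kcal/mol for Mir690, with 5.672% at or beyond that value. Mir5100, Mir2137, Mir5099, Mir1843a and Mir5121 had -0.39 to -0.34 kcal/mol per base, near the median of -0.41 and within the central range from -0.54 to -0.29 that leaves out 10% of hairpins on each side. Within the mature sequence, 66.7% of bases were paired in miR-5121 and 90% in miR-5099, the lowest and highest values, against a median of 81.0% over 1635 mature sequences. The lowest 10% of those sequences ended at 68.2%, the value of miR-1843a-3p and miR-690, and miR-5121 lay below it.

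**Figure D1:**
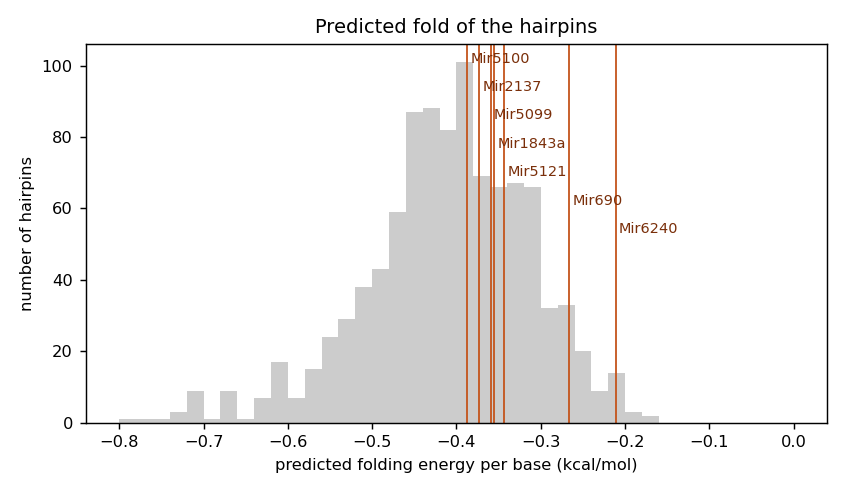
Predicted folding energy per base, in kcal/mol, of 1005 RefSeq hairpins (grey histogram, number of hairpins on the vertical axis) with 7 hairpins of the suspected entries, all but Mir6236, as lines. Mir6240 at -0.21 and Mir690 at -0.27 lie at the weakly folding end, and the other 5 lie between these and the median of -0.41.

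The libraries held 4577668 (WT replicate 1), 7638663 (WT replicate 2), 6901394 (damaged replicate 1) and 7350345 (damaged replicate 2) counts, which puts the limit behind a 0 (3 counts) at 0.393 to 0.655 CPM. Markers of muscle were present: miR-206-3p, a miRNA of skeletal muscle, stood at 290296 to 357644 CPM, and miR-133a-3p, miR-133b-3p, miR-1a-3p (Mir1a-1) and miR-499-5p were counted in every library. Of these, edgeR called miR-133b-3p (2.33-fold, adjusted p = 0.0107) and both rows of miR-133a-3p (2.20-fold and 2.17-fold) higher in damaged, and miR-499-5p stood at 1.55-fold (adjusted p = 0.0609). Their part in the results on the suspected entries was not tested. The neural miR-9-5p and the liver miRNA miR-122-5p were at 0 in all 4 libraries, and miR-124a-3p had 1 count in all. The other row of miR-1a-3p (Mir1a-2) was also at 0 in all 4 libraries, although the Mir1a-1 row had 17122 to 32470 counts. A 0 in a marker row therefore need not mean absence. Bases shared with other rows were checked for the suspected entries only. Of the blood markers, miR-142a-3p and miR-486-5p were at 0, miR-223-3p had 99 to 119 counts, and miR-144-3p had 0 in both WT libraries and 12 and 14 counts in the damaged ones. miR-451a had 1684, 1490, 1501 and 1386 CPM in the order given above, so this red cell miRNA, which serum can bring in, did not separate the groups. Whether RNA of serum or blood contributed to the suspected entries was not tested. In bulk vesicle RNA, more vesicles of a kind and more of an RNA per vesicle cannot be told apart.

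Together the suspected entries took a small share of the counts, and that share was higher in the damaged libraries. The WT libraries gave 0.180% (exact Clopper-Pearson 95% limits 0.176 and 0.184) and 0.279% (0.275 and 0.283). The damaged libraries gave 0.637% (0.631 and 0.643) and 0.687% (0.681 and 0.693). The intervals cover counting error only. The means were 0.230% ± 0.0702 in WT and 0.662% ± 0.0352 in damaged (SD, n = 2), a ratio of 2.88. The 2 groups did not overlap, and the WT libraries differed from each other by more than the damaged libraries did. An exact permutation p (two-sided) has a smallest possible value of 0.33 in this design, so none is given. Left without WT replicate 1 the ratio was 2.37 and without WT replicate 2 it was 3.68.

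**Figure D2:**
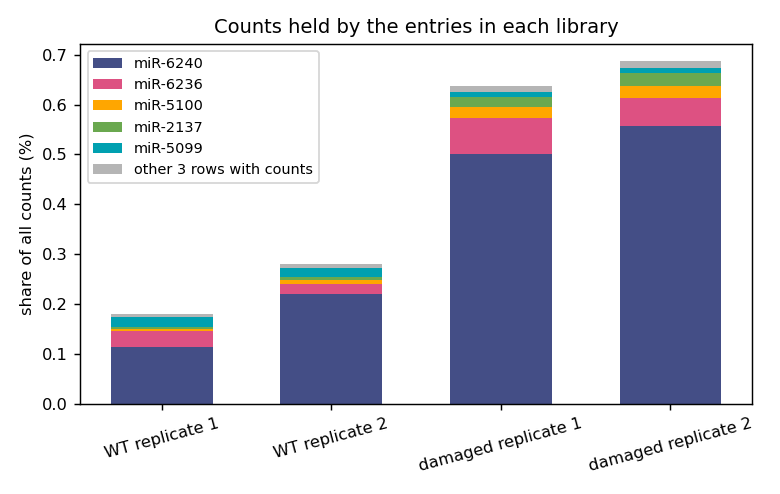
Share of all counts, in percent, held by the suspected entries in each of the 4 libraries, stacked by entry. The bars reach 0.180% and 0.279% in WT and 0.637% and 0.687% in damaged, and miR-6240 makes up most of each bar.

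miR-6240 set this total. It had 5227 and 16836 counts in the WT libraries and 34541 and 40961 in the damaged ones, or 63.5%, 79.0%, 78.5% and 81.1% of the counts of all the suspected entries. That placed it 62nd and 41st among all rows in the WT libraries and 29th and 27th in the damaged ones, among well-known miRNAs. After scaling by TMM, edgeR's correction for library composition, it stood at 1157 and 2211 CPM in WT and 5039 and 5448 CPM in damaged. Both damaged libraries lay above both WT libraries, and the WT libraries were far apart. Its log2 fold change was 1.64 ± 0.31 (SE), or 3.11-fold; without WT replicate 1 it was 2.25-fold and without WT replicate 2 it was 4.62-fold. Without miR-6240, the summed share of the other entries was 0.0623% ± 0.00495 for WT and 0.133% ± 0.00496 for damaged (SD, n = 2), a ratio of 2.14, with the WT libraries close together. Some entries within that sum were not close. From WT replicate 1 to WT replicate 2, the share of miR-6236 went from 0.0324% to 0.0193% and that of miR-5100 from 0.0023% to 0.0080%.

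miR-6236, the shortest of the set, did not run in parallel with miR-6240 across the WT libraries. It had 1482 and 1477 counts in WT and 4943 and 4161 in damaged, or 328, 194, 721 and 553 CPM. WT replicate 1 was thus the higher WT library for miR-6236 and the lower one for miR-6240. Counts of miR-6240 were 3.53 times those of miR-6236 in WT replicate 1, 11.4 times in WT replicate 2, and 6.99 and 9.84 times in the damaged libraries. The log2 fold change of miR-6236 was 1.29 ± 0.29 (SE), or 2.44-fold.

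miR-2137 varied little within each group. It had 58.0 and 64.9 CPM in the WT libraries (262 and 494 counts) and 202 and 236 CPM in the damaged ones (1386 and 1778 counts). The means were 61.4 ± 4.85 and 219 ± 24.2 CPM (SD, n = 2), so the groups lay well apart with little spread in either. The log2 fold change was 1.83 ± 0.18 (SE), or 3.57-fold. Of the 7 rows with a known GC content and counts, it moved most with that property: after a correction that fits each library's log2 CPM against GC content, the fold was 2.12, and 2.41 where the curve was fitted without the suspected entries. The same corrections brought miR-6236 from 2.44-fold to 1.81-fold and 1.98-fold, and left miR-6240 at 2.94-fold and 3.07-fold and miR-5121 at 4.57-fold and 4.60-fold. Only 7 tested rows have a GC content of 75% or more, 2 of them miR-2137 and miR-6236, so the curve rests on few points there. Over the 33 other rows in the band from 65% GC upward the median log2 fold change was 0.24, against -0.15 over 92 rows below 40%. Whether GC content acted on these counts beyond that was not tested.

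**Figure D3:**
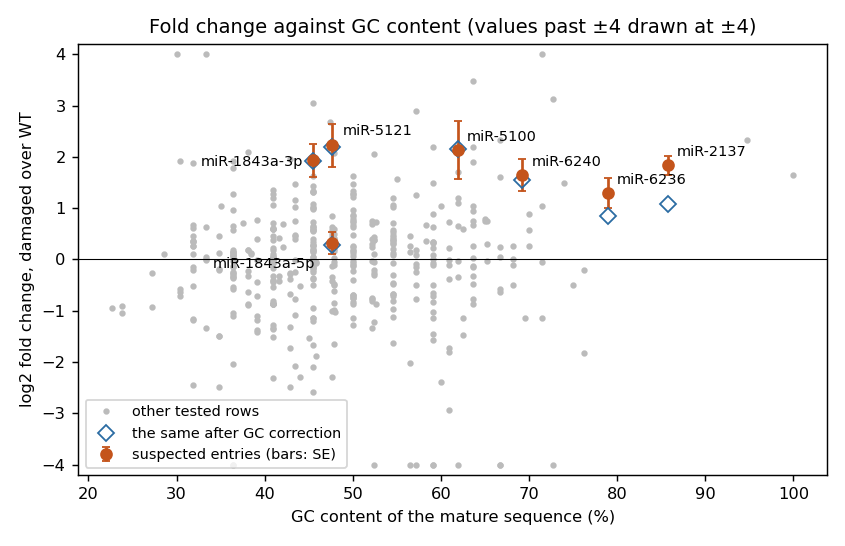
Log2 fold change, damaged over WT, against the GC content of the mature sequence in percent, for tested rows with a sequence (grey points, other rows) and for the suspected entries (filled circles with SE bars, n = 2 libraries a group; open diamonds after GC correction; points beyond the vertical range are drawn at its edge). miR-2137 drops from 1.83 to 1.09 and miR-6236 from 1.29 to 0.85, while miR-5121, miR-5100 and miR-1843a-3p hardly move.

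miR-5100, whose hairpin holds the B box letters, had the widest gap between WT libraries. Its counts were 104 and 611 in WT and 1530 and 1779 in damaged, or 23.0, 80.2, 223 and 237 CPM. Even the higher WT library stayed below both damaged ones. The log2 fold change was 2.14 ± 0.56 (SE), or 4.40-fold, and one WT library decided its size: it was 2.71-fold without WT replicate 1 and 10.2-fold without WT replicate 2. The WT libraries differed by 1.79 on the log2 scale for miR-5100, a gap that 8.58% of the tested rows reached, and the damaged libraries by 0.08, which 82.3% reached. For miR-6240, miR-5121 and miR-6236 the WT gaps were 0.93, 0.96 and -0.76 (replicate 2 over replicate 1), against a median size of 0.32 over all tested rows. Those of miR-2137, miR-5099 and both arms of miR-1843a were -0.09 to 0.28, under that median.

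**Figure D4:**
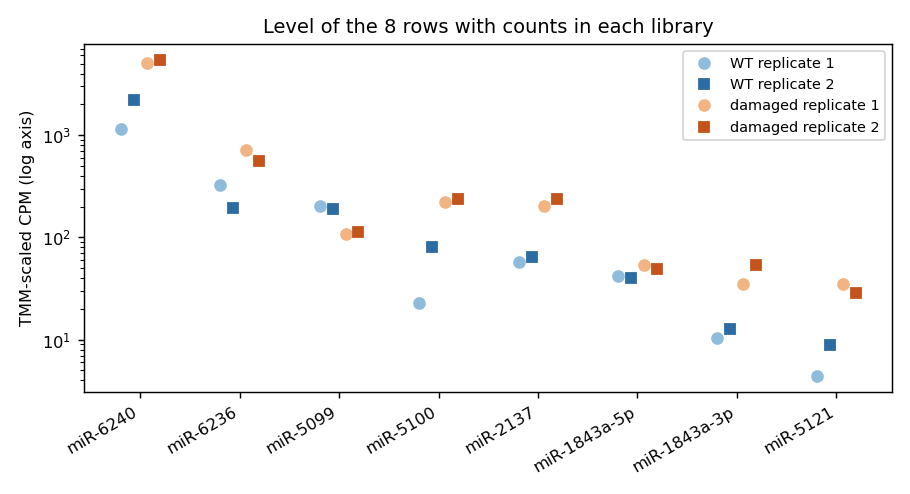
TMM-scaled CPM, on a log axis, of the 8 rows with counts, 1 point per library (WT in blue, damaged in orange, circles for replicate 1 and squares for replicate 2). The damaged points lie above both WT points in 7 rows and below them for miR-5099. Over all tested rows, both damaged libraries lay above both WT libraries in 29.1% and below them in 30.8%. The WT points of miR-5100 stand far apart at 23.0 and 80.2 CPM.

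The entries inside a snoRNA and a scaRNA were low. In each, both damaged libraries lay above both WT libraries, as in 29.1% of all tested rows. miR-5121, the Snord33 piece shown above, had 20 and 68 counts in WT and 241 and 214 in damaged, or 4.43, 8.93, 35.2 and 28.5 CPM. The damaged libraries were close to each other and well above both WT ones. Its log2 fold change of 2.22 ± 0.42 (SE), or 4.67-fold, differed from the 2.14 of miR-5100 by less than either SE, and it was 7.29-fold without WT replicate 2 and 3.37-fold without WT replicate 1. The counts carry no strand and no read ends, so a mature piece and a longer snoRNA read that overlaps it cannot be told apart.

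The arms of miR-1843a, both inside Scarna3b, did not move alike. The 3p arm, at the 3′ end of the scaRNA, had 47 and 97 counts in WT and 241 and 402 in damaged, or 10.4, 12.7, 35.2 and 53.5 CPM, with a log2 fold change of 1.93 ± 0.33 (SE), or 3.81-fold. The 5p arm had 188 and 306 counts in WT and 367 and 365 in damaged, or 41.6, 40.2, 53.5 and 48.5 CPM, with a log2 fold change of 0.32 ± 0.21 (SE). Counts of the 3p arm were thus 0.250 and 0.317 times those of the 5p arm in the WT libraries and 0.657 and 1.10 times in the damaged ones. These ratios are free of library scaling; the groups did not overlap, and the damaged libraries differed from each other by more than the WT ones did. For the paralog miR-1843b, inside Scarna3a on chromosome 1, the ratio was 0.173 and 0.245 in WT and 0.3298 and 0.311 in damaged, so these groups did not overlap either and lay in the same order. Its 3p arm had 5.09 and 4.73 CPM in WT and 9.19 and 11.04 CPM in damaged, a 1.04 ± 0.43 (SE) difference on the log2 scale with an adjusted p of 0.173 by edgeR. The whole 5p sequence of miR-1843b also occurs in Scarna3b, and the 5p sequences of miR-1843a and miR-1843b share a run of 20 bases. Reads of either 5p arm may thus be counted for the other, so the ratio of miR-1843b may not stand for its own locus alone. The longest run shared by the 3p arms is 9 bases. The difference between the arms was not tested. How many of all hairpins with both arms counted separate the groups in this way was not worked out, so nothing is read from the separation.

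**Figure D5:**
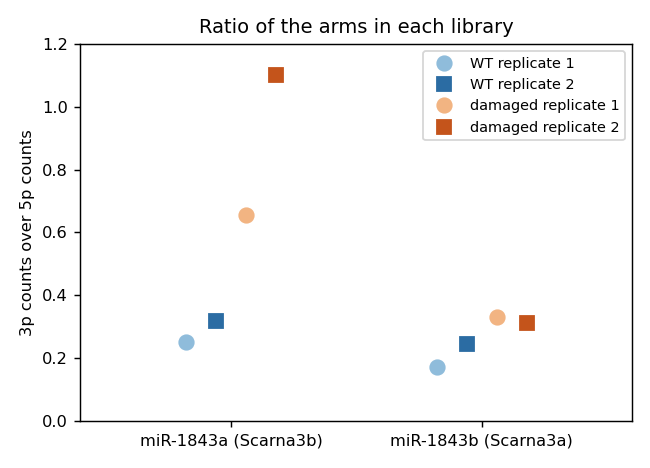
Counts of the 3p arm divided by counts of the 5p arm, for miR-1843a in Scarna3b and miR-1843b in Scarna3a, 1 point per library. For miR-1843a the damaged libraries stand at 0.657 and 1.10 and the WT libraries at 0.250 and 0.317, and for miR-1843b the damaged libraries at 0.3298 and 0.311 also stand above the WT libraries at 0.173 and 0.245.

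miR-5099 went the other way. It had 907 and 1435 counts in WT and 732 and 840 in damaged, or 201, 188, 107 and 112 CPM, so both damaged libraries lay below both WT libraries with little spread in either group. Its log2 fold change was -0.83 ± 0.16 (SE), 1.78-fold lower. Its part of the counts of the suspected entries was 11.01% and 6.73% in WT and 1.66% in both damaged libraries. miR-690 had no count in any library. With exact copies of its sequence in 18 other annotated genes, its reads could have been placed elsewhere or dropped, so depth alone sets no upper limit for it.

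Read against the whole table, edgeR's quasi-likelihood test called 51 of 536 tested rows (9.51%) at an adjusted p under 0.05, 22 of them higher (4.10%) and 29 lower (5.41%). Of the 8 suspected rows tested, miR-2137, miR-6240, miR-5121 and miR-1843a-3p were called higher and miR-5099 lower, while miR-5100, miR-6236 and miR-1843a-5p were not called. Both damaged libraries lay above both WT libraries in 29.1% of tested rows and below them in 30.8%, and among the 8 suspected rows this held for 7 and 1. A fitted fold above 2 was seen in 14.6% of tested rows and in 6 of the 8. Nothing is read from these counts, because the entries were chosen with this contrast known and miR-690 could not enter the test. The median log2 fold change was 1.74 over the 8 suspected rows and 0.02 over all 536. With 1 library left out, a group holds 1 library, so only fold changes are given here. The log2 fold change of miR-2137 then ran from 1.68 to 1.95 and that of miR-5121 from 1.75 to 2.87.

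Other entries that lie in structured RNA genes are given beside the set, with no test between the lists, since the suspected entries were chosen with this contrast known. Of 25 such rows outside the set, 20 had a count and 14 were tested; none was called higher or lower, and their log2 fold changes ran from -0.32 to 1.34 with a median of 0.48. The most abundant was miR-3068-5p, whose hairpin GENCODE types as a snoRNA, with 1192 and 1102 CPM in WT and 929 and 914 CPM in damaged (adjusted p = 0.150 by edgeR). miR-1839-5p, of a scaRNA gene, stood at 310 and 365 CPM in WT and 288 and 254 CPM in damaged (adjusted p = 0.256 by edgeR). miR-1843b-5p had 29.5 and 19.3 CPM in WT and 27.9 and 35.5 CPM in damaged (adjusted p = 0.480 by edgeR). miR-664-3p, of Snora36b, had 7.97 and 9.98 CPM in WT and 17.5 and 28.3 CPM in damaged, 2.54-fold higher on fitted values (adjusted p = 0.0800 by edgeR). miR-1839-3p, the fifth by mean CPM, had 1.77 and 8.27 CPM in WT and 16.9 and 9.18 CPM in damaged (adjusted p = 0.308 by edgeR). In miR-664-3p and miR-1839-3p the damaged libraries lay above the WT ones, in miR-3068-5p and miR-1839-5p below them, and in miR-1843b-5p the groups overlapped. Outside the set, the rows whose profile over the 4 libraries lay nearest to that of miR-6240 were miR-7079-5p, miR-1a-1-5p and miR-344d-3p (Mir344d-3), with root mean square differences of 0.12, 0.144 and 0.167 on the log2 scale. These 3 rows had 2 to 87 counts per library, far below miR-6240, and counting error alone blurs such profiles.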

How the data were processed

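The deposited table gives raw counts of reads over mature miRNA features, and each library has its own column. Per the file headers, featureCounts 2.0.1 counted features of type miRNA grouped by ID, with no strand, multi-mapping or multi-overlap option in the command. FastQC, BWA and mm10 are named per the submitters' processing notes; not given in the sources used here are the BWA version, its handling of reads with several places, the adapter trimming and the annotation release. Reads are not available by length or end, and no molecular identifiers are mentioned, so intervals cover counting error only.

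Rows were placed in GENCODE vM21 hairpins (same strand, within 3 bases) and named by exact position from RefSeq GRCm38.p6 (1734 of 2110 rows matched; 8 of the 9 suspected rows). The test was edgeR 4.0.16 (R 4.3.3), quasi-likelihood, TMM scaling, filterByExpr (min.count 10) and a model of group alone, with Benjamini-Hochberg adjustment over 536 rows at 0.05. The SE is the log2 fold change divided by the square root of F. CPM values are TMM-scaled and shares are not. Alternatives were other scalings and filters, DESeq2 1.42.0, limma-voom (limma 3.58.1), the replicate number as a block, summed identical sequences, each library left out, and a loess GC correction (span 0.75, 446 rows, 83.2% of those tested). Folds came from RNAfold 2.7.2. The fitting script was tested on simulated data. It called 39.1% of rows with a true log2 fold change of size 1 and 74.7% of those with size 2. Of unchanged simulated rows, 0.633% were called. In the simulation the spread between replicates depended on abundance alone, without the differences between rows of like abundance. These shares hold for that setting only. Entries, lists and alternatives were chosen with earlier results of these data known. Named were all suspected rows, the 3 nearest rows to the most abundant one, the 5 most abundant tested rows in structured RNA genes, and tissue markers. Structured RNA genes were those GENCODE types as snoRNA, scaRNA, snRNA, rRNA, misc_RNA and the like.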

Additional observations from a re-analysis of the deposited data

How the results depend on the processing

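The number of entries called, 51 of 536, was 77 with upper-quartile scaling, 106 with DESeq2 and 79 with limma-voom, over the same 536 rows. It was 131 of 1001 rows with no filter and 91 of 318 with at least 10 CPM in 2 libraries. With the GC correction fitted without the suspected entries, an alternative chosen after seeing the data, it was 33 of 446. With 1 library left out it ranged from 0 to 30, with 103, 124 and 144 entries at an unadjusted p under 0.05 beside the counts of 0 (without WT replicate 1, WT replicate 2 and damaged replicate 1). Equal replicate numbers share no stated batch, and their libraries did not deviate together (correlation 0.00316); with the replicate block 127 entries were called. Of the suspected entries, 5 were called, 2 with the GC correction fitted without them, and 0 to 2 with 1 library left out. In the other settings on 4 libraries 4 to 7 were called. Upper-quartile scaling, no filter, the 10 CPM filter, DESeq2, limma-voom and the replicate block each called 7, beside 77 to 131 of all rows. The GC corrections tested 7 suspected rows and the other settings 8. miR-5100 was called in 6 of the 11 settings on 4 libraries and miR-6236 in 9 of 11, and no log2 fold change of a suspected entry changed sign in any setting. The difference in their summed share, 0.433 percentage points, was 0.691 when counts of miR-206-3p were left out of the total and 0.0710 without miR-6240, and 0.383 to 0.482 with 1 library left out. Keeping 1 row for each distinct mature sequence could not change that difference, since no suspected row repeats the sequence of another. miR-5099 has no value under the GC correction. The gap between the WT libraries, 23.0 and 80.2 CPM, limits the fold of miR-5100.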
